A study of Mus musculus with 18 samples.

Results

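The transcripts of splicing factors and heterogeneous nuclear ribonucleoproteins (hnRNPs) were examined in single blastomeres of parthenogenetic 2-cell mouse embryos. The genes were those whose probe set carried a single symbol starting with Srsf and a digit, Hnrnp, Sf3a, Sf3b or Snrp, without Snrpn and without pseudogenes, and the probe set with the highest mean stood for its gene. In this way 43 of the 30176 genes on the arrays were chosen, namely 10 serine/arginine-rich (SR) proteins, 16 hnRNPs, 9 subunits of splicing factor SF3 and 8 proteins of the small nuclear ribonucleoproteins (snRNPs). Srsf7 was not among the single-symbol probe sets, and 9 probe sets named for a gene of these families together with another symbol, such as Hnrnpa1 and Snrpd2 with their pseudogene copies, were left out.

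Oocytes of B6C3F1 females, an F1 hybrid background, had been activated for 6 h with SrCl2 in the presence of latrunculin, which holds back the second polar body, and were then cultured in KSOM(aa) medium. At Theiler stage 2, on day 1 after activation and after 20 h of culture, 9 embryos were bisected and each blastomere was lysed on its own. The embryos carried the numbers 1 to 5 and 7 to 10, the sister blastomeres the letters a and b, and all 18 shared the same background, activation and medium, so that the pair of origin was the only grouping. Embryos of this kind hold maternal chromosomes only and no sperm contribution, and a gene is represented by its RNA in 1 array for each blastomere.

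Splicing removes introns from the primary transcript in the spliceosome, whose U1, U2, U4, U5 and U6 particles each consist of a small nuclear RNA and proteins, with a ring of Sm proteins in U1, U2, U4 and U5 and a ring of Lsm proteins in U6. SF3A and SF3B belong to the U2 particle and hold it at the branch point of the intron. SR proteins bind exonic sequences and mostly recruit the machinery, whereas hnRNPs coat nascent RNA and often act against the use of a splice site. The mouse oocyte stops transcribing before ovulation, so that the 2-cell embryo holds stored maternal mRNA beside the products of its first own transcription, and an array does not separate these sources.

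Nearly all of these genes gave signal above a background threshold. Values are log2 signals, 1 unit being a 2-fold difference, and a gene was taken as above background when its mean exceeded 5.80, a level set from genes that blastomeres of a parthenogenetic embryo should not express. One of these genes, Y-linked Sry, had a mean of 7.82, so passing the threshold does not by itself show expression. Sf3b6, Sf3a2, Srsf9, Hnrnph2, Sf3a1 and Hnrnpm passed it with means below that of Sry. Of the 43 genes, 39 were above background: all 16 hnRNPs, 9 of 10 SR proteins, 7 of 9 SF3 subunits and 7 of 8 snRNP proteins. Their median level was 9.96, against 7.77 for the 12885 genes above background. The signal of one probe set is not comparable with that of another, so the order of genes in the plot of all levels is an order of signals and not of transcript numbers.

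**Figure D1:**
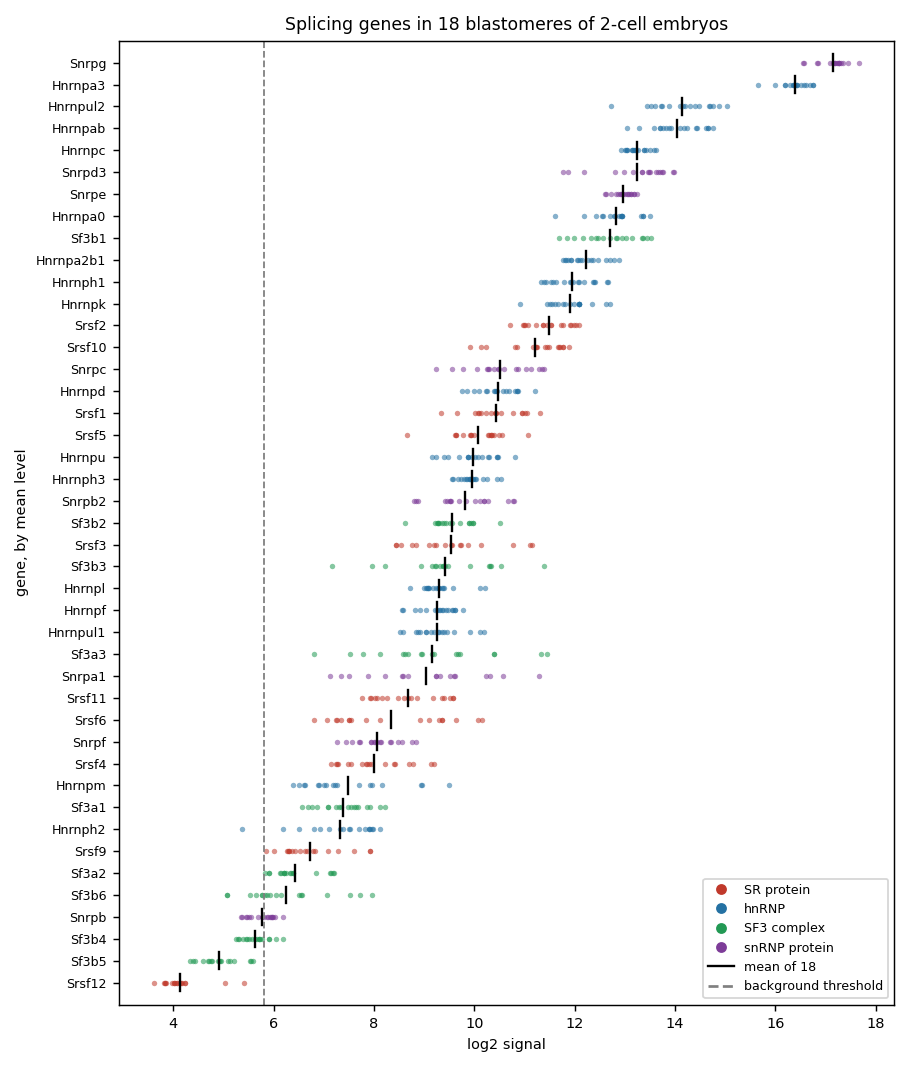
Log2 signal of the 43 genes (rows, by mean) in each of the 18 blastomeres, with 1 point for each blastomere, a black bar at the mean and a dashed line at the background threshold of 5.80. Snrpg and Hnrnpa3 had the brightest probe sets, and the means of Snrpb, Sf3b4, Sf3b5 and Srsf12 lay below the threshold.

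The brightest probe sets were those of Snrpg (17.14 ± 0.28, SD, n = 18 blastomeres), which encodes the Sm ring protein G, and Hnrnpa3 (16.39 ± 0.27). Hnrnpul2, a relative of the nuclear scaffold protein hnRNP U, followed with 14.13 ± 0.60, Hnrnpab with 14.04 ± 0.49 and Hnrnpc, which binds uridine tracts in introns, with 13.24 ± 0.21. The identifier of the Snrpg probe set places it on chromosome 17 and that of the Hnrnpa3 probe set on chromosome 3, whereas the genes lie on chromosomes 6 and 2. Both probe sets may therefore read processed copies of these genes beside the genes themselves. A probe set named for Hnrnpa3 and a further symbol, whose identifier carries chromosome 2, had a mean of 13.89. Over the 18 blastomeres it correlated with the brighter Hnrnpa3 probe set at r = 0.40 (Pearson), against 0.93 for 2 Snrpg probe sets. It was highest in embryo 3 and lowest in embryo 10, the brighter one highest in embryo 5 and lowest in embryo 9. At the other end, Sf3b6, whose product touches the branch point adenosine, had a mean of 6.25 ± 0.85 and was above the threshold in 12 of 18 blastomeres. Sf3a2 (6.43 ± 0.46) and Srsf9 (6.72 ± 0.61) also lay just above the threshold. Below it were Snrpb (5.76 ± 0.26), the gene of the Sm protein B, Sf3b4 (5.63 ± 0.26), Sf3b5 (4.91 ± 0.38) and Srsf12 (4.14 ± 0.43).

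The spread of relative log expression over all genes (interquartile range) lay between 0.55 and 0.835, and it was widest in blastomeres 5b (0.835) and 1a (0.815), so results are also given without embryos 1 and 5 where these change them. Oocyte and 2-cell markers were above background in 16 of 16 cases. Between embryos, 5 of these 16 (31.3%) were called in limma, against 5.81% of all genes, namely Zscan4c, Zscan4f, Npm2, Oosp1 and Zscan4d. An unadjusted p under 0.05 was found in 9 of them. Of the cumulus and granulosa markers 1 of 12 was above background (Has2, 6.43), of the blood and oviduct markers 2 of 6 (Pecam1, 7.63, and Epcam, 6.88), and of the sperm and Y-linked genes 2 of 7 (Sry, 7.82, and Prm2, 6.29). The log2 of the summed signal of the cumulus, blood and sperm lists ran over the blastomeres from 8.26 to 8.86, from 8.29 to 10.03 and from 8.54 to 9.54. None of the genes above background in these cumulus, blood and sperm lists differed between embryos (limma, 0 calls). At an unadjusted p under 0.05 there was 1, in the sperm and Y-linked list.

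The first question was whether the embryos differed in these transcripts beyond the difference between their own sister blastomeres. The genes that did were the Sm protein gene Snrpg, the hnRNP genes Hnrnpab and Hnrnph2 and the SR protein gene Srsf10. These were 4 of 39 (10.3%) in limma's moderated F test with Benjamini-Hochberg adjustment over all genes above background, of which 5.81% were called. Before adjustment 15 of 39 (38.5%) had a p under 0.05, against 22.6% of all genes. The spread between sisters is the error of this test, so its p-values weigh the differences between the means of these embryos against that spread. The labels give no order of processing, and whether sisters were handled side by side was not tested.

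Snrpg was low in both sisters of embryo 9 and next lowest in those of embryo 10. Its log2 signals, sister a before sister b, were 17.18 and 17.15 in embryo 1, 17.17 and 17.08 in embryo 2, 17.34 and 17.44 in embryo 3, 17.27 and 17.26 in embryo 4, 17.22 and 17.67 in embryo 5, 17.24 and 17.27 in embryo 7, 17.30 and 17.19 in embryo 8, 16.55 and 16.58 in embryo 9, and 16.82 and 16.84 in embryo 10. Neither embryo 9 nor embryo 10 overlapped with any other embryo. The mean of embryo 5, 17.45, was 1.84-fold that of embryo 9, 16.57, and sisters varied by an SD of 0.11 (limma adjusted p = 0.0154). Leaving out embryo 9 ended the call (adjusted p = 0.146), as did leaving out 9a or 9b (adjusted p up to 0.0621). A dimmer Snrpg probe set, whose identifier carries chromosome 6, had a mean of 7.95. It was likewise highest in embryo 5 (8.32) and lowest in embryo 9 (7.56), and was not called (limma adjusted p = 0.643). Its sister SD was 0.14 and its F without limma's moderation 4.70, against 11.9 for the brighter probe set. The moderated test also draws on the sister variance of other genes of like signal. The lack of a call therefore does not show that embryos were equal in this probe set.

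Hnrnpab encodes an RNA-binding protein of the nucleus and cytoplasm. Both sisters were high in embryos 7 (14.62 and 14.76) and 4 (14.65 and 14.43) and also in embryos 3 (14.17 and 14.65) and 1 (14.41 and 14.24). Embryos 5 (14.09 and 13.76), 9 (13.88 and 13.92) and 8 (13.82 and 13.71) lay between, and embryos 10 (13.28 and 13.58) and 2 (13.05 and 13.71) were low. None of the blastomeres of embryos 1, 3, 4 and 7 read lower than any blastomere of the other embryos. Embryo 7 (mean 14.69) was 2.48-fold above embryo 2 (13.38), and the adjusted p was 0.0355 (limma). This call was lost without embryo 4, 7, 8, 9 or 10 (adjusted p up to 0.0913), and without any 1 of 13 of the blastomeres.

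Srsf10 encodes an SR protein that represses splicing once it is dephosphorylated, as happens in mitosis and after heat shock. Embryo 8 stood apart with 10.14 and 9.92, and embryo 5 followed with 10.82 and 10.23. The other sisters read 11.45 and 11.22 in embryo 1, 11.24 and 10.85 in embryo 2, 11.67 and 11.16 in embryo 3, 11.89 and 11.77 in embryo 4, 11.71 and 11.69 in embryo 7, 11.77 and 11.22 in embryo 9, and 11.49 and 11.40 in embryo 10. The blastomeres of embryos 5 and 8 were thus the lowest 4 of the 18. Embryo 4 (mean 11.83) exceeded embryo 8 (10.03) by a factor of 3.48 (limma adjusted p = 0.0431). The call did not hold without embryo 4, 5, 7, 8, 9 or 10, where the adjusted p reached 0.257, or without any 1 of 16 of the blastomeres.

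Hnrnph2, an X-linked gene whose product binds runs of guanosine, was low in embryo 4 alone, where sister a (5.36) was below the background threshold and sister b (6.18) just above it. In embryo 8 the sisters read 6.92 and 6.50, in embryo 5 they read 6.81 and 7.32, and the sisters of all other embryos lay between 7.11 and 8.12. The blastomeres of embryo 4 did not overlap with any other. The mean was 8.05 in embryo 3 and 5.77 in embryo 4, and with sister a of embryo 4 set to the threshold the difference was at least 4.17-fold (limma adjusted p = 0.0426). Without embryo 4 the adjusted p was 0.298, and the call was also lost without embryo 2, 3, 7, 8 or 9 and without any 1 of 17 of the blastomeres. Its close relative Hnrnph1 behaved differently in embryo 4, where the sisters read 12.36 and 12.64, among the highest values of that gene, and Hnrnph1 was not called (adjusted p = 0.122).

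**Figure D2:**
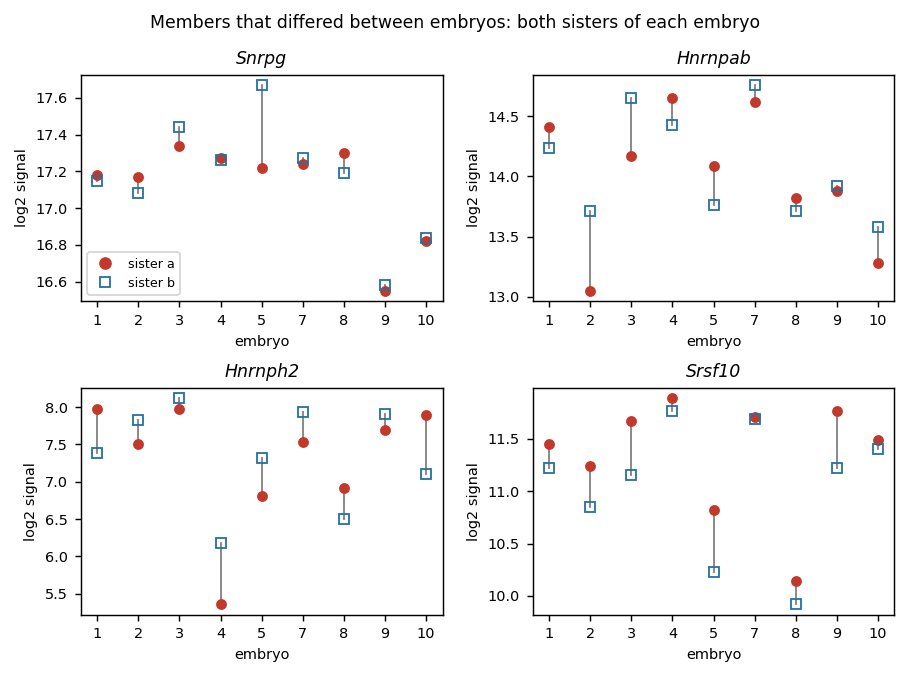
Log2 signal of Snrpg, Hnrnpab, Hnrnph2 and Srsf10 in both sisters (filled circle a, open square b, joined by a line) of the 9 embryos, with a scale of its own in each panel. Both sisters of embryo 9 were low in Snrpg, both of embryo 4 in Hnrnph2 and both of embryo 8 in Srsf10.

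The promoters of these called genes are shown to give the sequence before their annotated starts. The starts used in these embryos were not measured. Promoter windows were taken from RefSeq on GRCm38.p6, as the 250 bases before the annotated start, and 39 of the 43 genes had 1 or more, 51 windows in all. Genes of these families entered here whether or not they were above background, and a gene with several windows counts more than once. Capitals mark the core letters of a few common promoter elements on either strand. These were the CCAAT box, read as ATTGG on the other strand, the GC box GGGCGG, read as CCGCCC, the Ets site CCGGAAG, read as CTTCCGG, and the cyclic AMP response element TGACGTCA, which is its own reverse complement. The TATA box, as TATAAA, was searched as well.
Snrpg, chr6:86371290-86371539, plus strand: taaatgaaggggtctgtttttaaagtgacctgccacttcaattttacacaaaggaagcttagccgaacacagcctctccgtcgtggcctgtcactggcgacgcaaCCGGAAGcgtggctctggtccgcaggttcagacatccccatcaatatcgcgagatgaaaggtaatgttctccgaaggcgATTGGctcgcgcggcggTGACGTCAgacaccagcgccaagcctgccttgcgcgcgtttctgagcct
Hnrnpab, chr11:51606882-51607131, minus strand: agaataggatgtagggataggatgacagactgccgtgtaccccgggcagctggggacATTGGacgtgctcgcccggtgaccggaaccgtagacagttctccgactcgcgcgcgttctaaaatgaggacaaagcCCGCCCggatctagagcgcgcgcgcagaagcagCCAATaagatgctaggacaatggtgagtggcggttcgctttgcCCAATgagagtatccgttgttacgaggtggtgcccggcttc
Srsf10, chr4:135855821-135856070, plus strand: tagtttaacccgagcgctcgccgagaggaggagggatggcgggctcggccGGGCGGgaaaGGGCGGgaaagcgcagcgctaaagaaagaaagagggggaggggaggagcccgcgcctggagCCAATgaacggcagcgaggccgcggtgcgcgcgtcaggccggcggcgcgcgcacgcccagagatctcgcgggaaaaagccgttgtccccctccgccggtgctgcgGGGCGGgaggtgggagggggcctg
Hnrnph2, chrX:134600929-134601178, plus strand: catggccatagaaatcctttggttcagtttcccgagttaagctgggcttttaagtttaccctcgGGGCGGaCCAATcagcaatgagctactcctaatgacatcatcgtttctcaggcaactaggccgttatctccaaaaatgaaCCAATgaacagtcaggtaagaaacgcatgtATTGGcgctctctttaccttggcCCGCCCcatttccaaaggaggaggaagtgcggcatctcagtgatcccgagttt
The window of Snrpg held a CCGGAAG, a reverse CCAAT and a TGACGTCA, and it belongs to the gene on chromosome 6, not to the place of the brighter probe set. Hnrnpab had 3 CCAAT and 1 GGGCGG, Srsf10 had 1 CCAAT and 3 GGGCGG, and Hnrnph2 had 3 CCAAT and 2 GGGCGG, and the G and C content of the 4 windows ran from 48.4% (Hnrnph2) to 72% (Srsf10). Among all 51 windows of these families, CCGGAAG occurred in 18 (35.3%), against 13.9% of the windows of all genes above background and 6.91% of all RefSeq windows. GGGCGG occurred in 35 of 51 (68.6%), against 53.6% for genes above background, CCAAT in 24 (47.1%), against 36.5%, TATAAA in 4 (7.84%), against 7.07%, and TGACGTCA in 1 (1.96%), against 2.54%. These are matches of letters and not sites shown to be bound.

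A further pair of genes missed the threshold narrowly. Snrpa1, which encodes the U2 protein A', had the widest range between embryos of all genes of these families, with 10.57 and 11.28 in embryo 7 and 10.32 and 10.24 in embryo 4, but 7.88 and 7.13 in embryo 2. Embryo 7 was 10.7-fold above embryo 2, yet sisters were also far apart in this gene (sister SD 0.68), and the adjusted p was 0.0556 (limma). Sf3b6 read 7.52 and 7.96 in embryo 4 and 5.77 and 5.07, both below the threshold, in embryo 8, so that embryo 4 was at least 3.83-fold above embryo 8 (limma adjusted p = 0.0521).

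By family, the unadjusted p was under 0.05 in 6 of 9 SR proteins, 4 of 7 snRNP proteins, 4 of 16 hnRNPs and 1 of 7 SF3 subunits. The share among all genes was 22.6%, so that the hnRNPs lay near it and the SF3 subunits below it. The snRNP count includes Snrpg, whose probe set may read a processed copy. The family counts were not tested against the share of all genes. The SR protein genes with an unadjusted p under 0.05 were Srsf10, Srsf9, Srsf1, Srsf3, Srsf2 and Srsf11, with limma adjusted p between 0.0431 and 0.216. Srsf1, Srsf2, Srsf10 and Srsf11 had their lowest mean in embryo 8. Srsf1, a splicing activator, read 9.33 and 10.01 there and 11.01 and 11.31 in embryo 4. Srsf3, the smallest SR protein, ran the other way, with 11.14 and 10.78 in embryo 8 and 8.43 and 9.10 in embryo 7. Neither Srsf1 (adjusted p = 0.111) nor Srsf3 (adjusted p = 0.157) passed the test.

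The embryo means of a gene were also set against its mean over all embryos, which shows where a family lay as a whole. The 9 SR proteins were 0.50 log2 units above their own means in embryo 7 (median) and 0.29 above in embryo 4, with 7 of 9 genes above in each. In embryo 8 their median was -0.33, with 1 of 9 above, and in embryo 5 it was -0.32, with 2 of 9 above. Embryos 1 and 3 also had 7 of 9 above (medians 0.23 and 0.12), and embryo 2 had 1 of 9 above (median -0.22). The medians of all genes lay between -0.07 and 0.04. The 16 hnRNPs had a median of 0.33 in embryo 7, with 12 above, and of -0.26 in embryo 8, with 2 above. Embryo 3 had 12 hnRNPs above as well (median 0.18), and embryo 2 had 3 above (median -0.19). These signs in embryos 4, 5, 7 and 8 were the same with quantile normalization and with median centring.

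Genes of the spliceosomal core were mixed in this respect. The 7 SF3 subunits had medians of 0.13 in embryo 4, 0.05 in embryo 5, -0.18 in embryo 7 and 0.10 in embryo 8, with the same signs under both other scalings. The 7 snRNP proteins had their lowest medians in embryos 10 (-0.33, 0 of 7 above their own mean) and 9 (-0.32, 2 of 7 above), and their highest in embryo 3 (0.25, 6 of 7 above), with these signs kept as well. Snrpc, the gene of the U1 protein C, was high in embryos 4 (11.35 and 11.28) and 7 (11.38 and 10.88) and low in embryo 8 (9.78 and 9.24), as most SR protein genes were, and was not called (adjusted p = 0.182). Sf3b6 and Snrpa1, described above, also had their highest means in embryos 4 and 7. Others ran the opposite way. Sf3b1, the largest subunit of SF3B, read 13.36 and 13.45 in embryo 8 and 13.53 and 13.14 in embryo 5, and 11.84 and 11.98 in embryo 7 (adjusted p = 0.333). Snrpb2, the gene of the U2 protein B'', was high in embryos 5 (10.67 and 10.77) and 8 (10.27 and 10.79) and low in embryo 9 (8.79 and 8.88), and it was not called (adjusted p = 0.0975). Counted over all 39 genes, 9 (23.1%) were highest in embryo 7, against 15.0% of all genes, and 10 (25.6%) were lowest in embryo 8, against 8.99%. In embryo 4, 8 (20.5%) were highest, against 10.6% of all genes. Above their own mean were 29 (74.4%) in embryo 3, against 52.0% of all genes. In embryo 2 only 9 (23.1%) were above, against 45.5%. Differences between the families in these profiles were not tested.

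**Figure D3:**
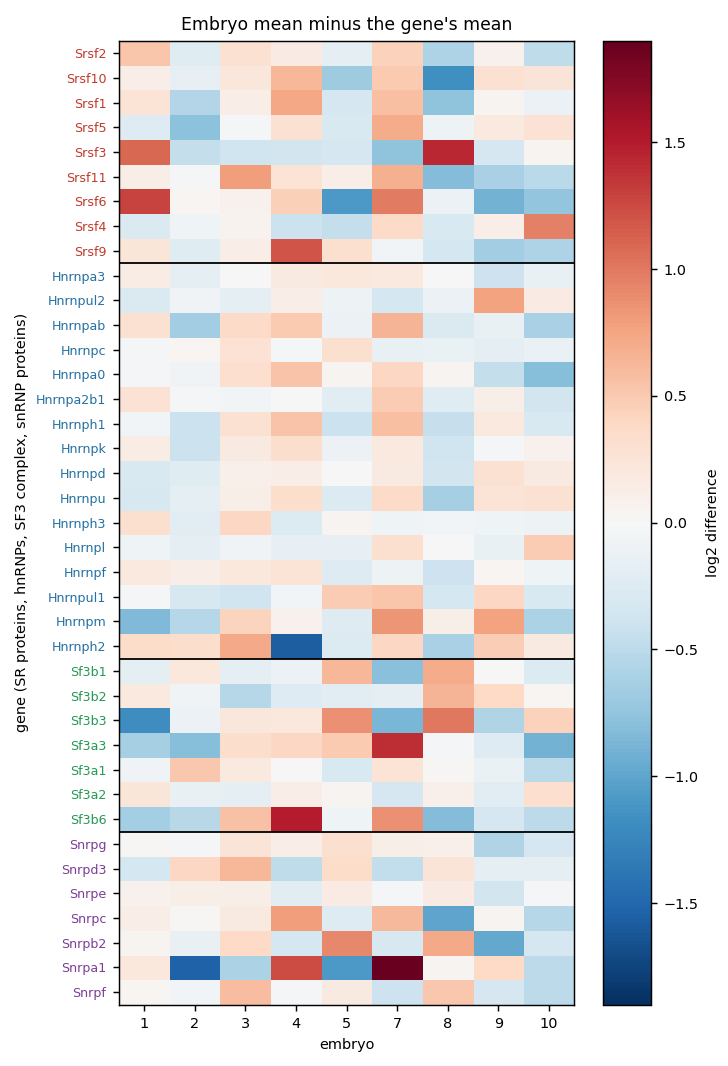
Mean of each embryo minus the mean of the gene over all 9 embryos (log2 difference, red above and blue below) for the 39 genes above background, ordered as SR proteins, hnRNPs, SF3 subunits and snRNP proteins. In embryo 8 Srsf10 and Snrpc were blue and Srsf3 and Sf3b3 red, and Snrpa1 in embryo 7 had the deepest red.

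The next question was how far sister blastomeres lay apart, as the ratio of the higher to the lower linear signal within a pair, averaged over the 9 pairs as a geometric mean. The median gene of these families had a ratio of 1.36 between sisters and 1.49 between non-sisters, and for all genes above background the medians were 1.45 and 1.56. On average 16.0% ± 6.51 (SD, n = 9 pairs) of these genes were over 2-fold apart in sisters, against 21.0% in the 144 non-sister pairs. For all genes the shares were 18.9% ± 3.64 and 24.6%. In 28 of 39 genes (71.8%) sisters were closer than non-sisters, as in 68.9% of all genes. A ratio of this form is never under 1 and grows with technical noise.

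The families differed in this respect in their values, without a test. In the 7 snRNP protein genes the difference between sisters was 61.1% of that between non-sisters (mean absolute log2 difference 0.41 and 0.67), and sisters were closer in 7 of 7. For SR proteins it was 71.4% (8 of 9 closer), for hnRNPs 90.3% (9 of 16) and for SF3 subunits 96.7% (4 of 7). For all genes above background it was 84.7%. Over 2-fold apart in sisters were 11.1% of the snRNP protein values, 16.0% of SR, 9.72% of hnRNP and 34.9% of SF3 values. The SD of these shares over the 9 pairs was 9.52, 12.6, 4.54 and 24.9 in the same order. Between non-sisters the shares were 22.4%, 27.9%, 12.6% and 29.9%. Median levels of the families also differed, at 10.52, 9.53, 11.18 and 9.16 in the same order. The part of signal level in these shares was not tested. Of the SF3 values over 2-fold apart, Sf3a3 held 7 and Sf3b3 held 5.

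Sister signals were nearly equal in a few genes of the Sm ring and of the hnRNPs. Snrpg differed between sisters by a ratio of 1.07 and Snrpe, the Sm protein E gene, by 1.09 (non-sisters 1.25 and 1.17). All 18 Snrpe values lay between 12.61 and 13.25 with a median of 12.99, and both sisters of embryo 9 were lowest (12.62 and 12.61). Hnrnpc had a ratio of 1.15, with values from 12.93 to 13.63, and Hnrnph3 of 1.19, with values from 9.55 to 10.54. None of these 4 genes was over 2-fold apart in any pair. In Snrpg, whose sisters were the closest, the widest pair was pair 5, at 1.37-fold. Other genes of the Sm ring were farther apart. Snrpf had a sister ratio of 1.29. Snrpd3 had one of 1.64, with 3 pairs over 2-fold apart and 4.29-fold in pair 1.

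At the other extreme stood Sf3a3, a subunit of SF3A, with a mean sister ratio of 3.31 and over 2-fold in 7 of 9 pairs. Its log2 signals, sister a before sister b, were 8.95 and 8.11 in embryo 1, 7.53 and 9.19 in embryo 2, 8.58 and 10.40 in embryo 3, 11.33 and 7.78 in embryo 4, 8.93 and 10.40 in embryo 5, 11.45 and 9.67 in embryo 7, 9.63 and 8.62 in embryo 8, 8.68 and 9.16 in embryo 9, and 6.80 and 9.72 in embryo 10. The sisters of embryo 4 were 11.7-fold apart, and the higher signal was in sister a in 4 pairs and in sister b in 5. Non-sisters were closer than sisters in this gene, with a ratio of 2.66.

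Hnrnpm, Srsf6 and Sf3b3 came next, with mean sister ratios of 2.29, 2.28 and 2.14. Hnrnpm was over 2-fold apart in 5 pairs, most of all in pair 9 (7.01 in a and 9.50 in b, 5.62-fold). Srsf6 was over 2-fold apart in 6 pairs, with 9.64 in a and 6.81 in b of embryo 8 (7.11-fold) but 7.26 and 7.25 in embryo 5. Sf3b3 was over 2-fold apart in 5 pairs and reached 11.38 in sister a and 9.21 in sister b of embryo 5 (4.50-fold), which holds 1 of the arrays with the widest spread. Their ratios between non-sisters were 2.03 for Hnrnpm, 2.47 for Srsf6 and 2.15 for Sf3b3.

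**Figure D4:**
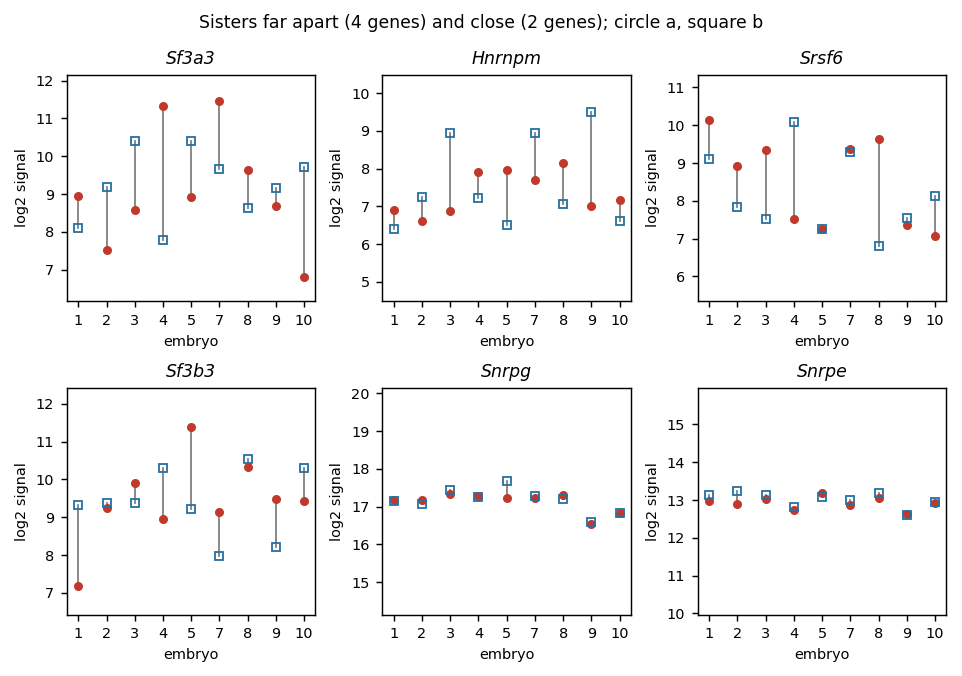
Log2 signal of both sisters (filled circle a, open square b, joined by a line) in the 9 embryos for the 4 genes with the largest sister ratios and for Snrpg and Snrpe, with the same span of log2 units in every panel. Sisters of Sf3a3 were up to 11.7-fold apart, in embryo 4, while those of Snrpe were at most 1.27-fold apart.

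Whether the sister difference of a gene was larger or smaller than that of other genes of like signal was tested against limma's prior variance. Neither tail held a call among the 39 genes or among all genes above background (0% called, Benjamini-Hochberg adjusted). This prior was fitted to the sister variances of the tested genes themselves, with 3.29 degrees of freedom. The test could therefore hardly call any gene, and the lack of calls does not show that sister differences were ordinary. Sf3a3, with a sister SD of 1.38 against a prior SD of 0.53, had an unadjusted p of 0.0592 (F test). At an unadjusted p under 0.05, none of the 39 had excess sister variance, against 4.18% of all genes, and 3 (7.69%) had low sister variance, against 6.53%. The genes with low sister variance were Snrpe, Hnrnpc and Hnrnph3, with limma adjusted p of 0.263, 0.617 and 0.654. Snrpg was not among them, with a sister SD of 0.11 against a prior SD of 0.16 (unadjusted p = 0.199, F test).

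**Figure D5:**
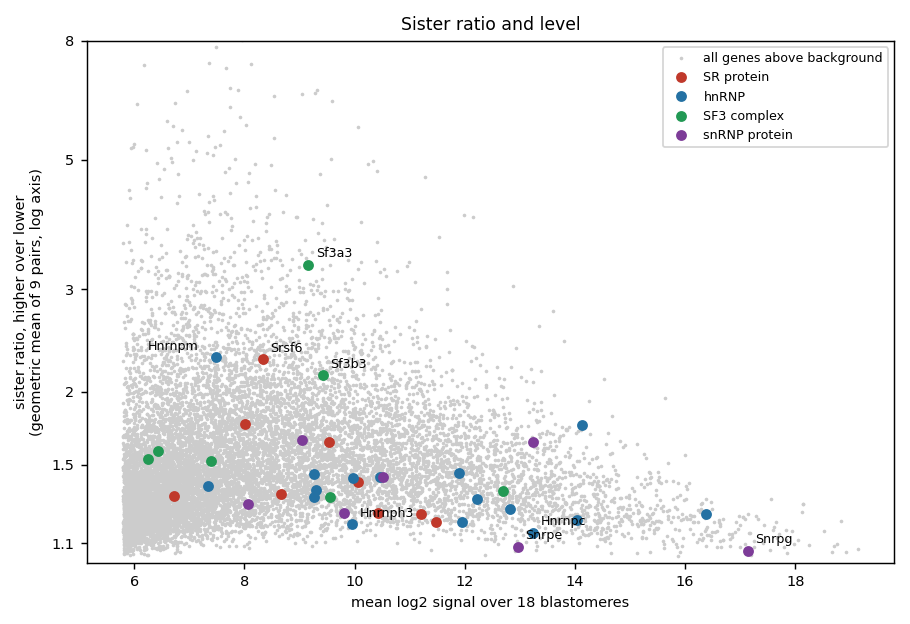
Geometric mean of the sister ratio over 9 pairs (log axis) against the mean log2 signal over 18 blastomeres, for the genes of the 4 families (large coloured points) and all genes above background (small grey points, of which 14 lie beyond the axis). Sf3a3 (3.31) stood highest and Snrpg (1.07) lowest among the coloured points.

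Pairs differed in how many of these genes were far apart. Over 2-fold apart were 9 of 39 (23.1%) in each of the pairs 1, 5 and 7, 7 (17.9%) in pairs 2 and 4, 5 (12.8%) in pair 10, 4 (10.3%) in pair 8 and 3 (7.69%) in pairs 3 and 9. For all genes the shares were highest in pairs 1 (25.7%), 5 (23.4%) and 7 (21.2%) too. Pairs 1 and 5 hold the arrays with the widest spread, and the part of these arrays in the sister differences was not tested. Without embryos 1 and 5 the share of these genes over 2-fold apart was 13.9%, and the median ratio was 1.35.

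Other genes of the splicing machinery were counted from lists of 128 genes, of which 110 were measured and 104 were above background. Of these 8 (7.69%) differed between embryos in limma, near the 5.81% of all genes. An unadjusted p under 0.05 was found in 23 of the 104, near the 22.6% of all genes. The minor spliceosome, which removes the rare U12-type introns, held 3 called genes of 7, the tri-snRNP and catalytic core 3 of 35, the exon junction complex 1 of 5 and other splicing regulators 1 of 25. None was called among 13 early complex and U2 partners, 12 snRNP assembly factors and 7 SR protein kinases, in which 2, 3 and 1 had an unadjusted p under 0.05.

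Syncrip, the gene of hnRNP Q, had the smallest p of these. Its embryo means were 12.07 in embryo 7 and 9.10 in embryo 8, a 7.81-fold difference (sister SD 0.27, limma adjusted p = 0.00204). It thus shared its highest and lowest embryos with Hnrnph1. Of the U11/U12 particle, Snrnp35 read 9.87 in embryo 7 and 6.59 in embryo 5 (9.65-fold, adjusted p = 0.0154), and Snrnp25 11.37 in embryo 3 and 8.08 in embryo 10 (9.78-fold, adjusted p = 0.0356). Zmat5, of the same particle, read 7.62 in embryo 7, at least 3.51-fold above embryo 5, where both sisters were below the threshold (adjusted p = 0.0380).

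Snrnp27 of the tri-snRNP and Lsm7 of the ring on U6 RNA were highest in embryo 5 instead. Snrnp27 read 11.95 in embryo 5 and 9.74 in embryo 7 (4.63-fold, limma adjusted p = 0.00882), and Lsm7 12.78 in embryo 5 and 10.81 in embryo 1 (3.92-fold, adjusted p = 0.0123). Prpf38a, of the activation step, read 12.61 in embryo 7 and 10.45 in embryo 10, and Rbm8a, a core protein of the exon junction complex, 13.99 in embryo 4 and 11.95 in embryo 10 (limma adjusted p = 0.0451 for both). With 1 embryo left out at a time, the calls of Syncrip, Snrnp27 and Snrnp35 held in all 9 cases, and that of Lsm7 was lost without embryo 5 (adjusted p = 0.0591). Those of Snrnp25, Zmat5 and Prpf38a were lost in 5 of 9 cases each, with adjusted p up to 0.114 (without embryo 10), 0.134 and 0.210 (both without embryo 7). The call of Rbm8a was lost in 7 of 9, with adjusted p up to 0.0984 (without embryo 4).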

How the data were processed

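Total RNA of 18 single blastomeres was hybridised to Affymetrix Mouse Transcriptome Array 1.0 after WT Pico amplification. The deposited log2 values had been background-corrected, normalized between arrays and summarised per probe set by the authors with SST-RMA in Affymetrix software, which hides differences in total RNA between cells. Their genome build is not given in the sources consulted. The table held 65956 probe sets from 2.14 to 19.41 log2 units (array medians 4.86 to 5.26). Of these, 30638 had 1 symbol in the platform annotation, 2176 several and 33142 none. The brightest probe set stood for each of 354 genes with several. The background threshold was the 95th percentile of the means of 1443 chemosensory and Y-linked genes.

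Genes above background were fitted in limma 3.58.1 (R 4.3.3) with embryo as a factor, eBayes with an intensity trend, the moderated F test and Benjamini-Hochberg adjustment at 0.05. The methods name an analysis of variance, whose plain form was an alternative. Sister variance was tested by F with 9 and 3.29 degrees of freedom. The fit was tested on simulated data. No 2 arrays were duplicates (highest correlation across probe sets 0.969). Python 3.11.15, numpy 2.4.6, pandas 2.3.3 and matplotlib 3.10.9 served for the rest.

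Genes and lists were chosen with earlier results of these data known. Named were the genes called in either test, those with the 4 largest and 4 smallest sister ratios, the 5 brightest, the 3 on either side of the background threshold and the other splicing genes called. Genes outside this rule were chosen after their values were seen. The number of embryos limits the precision.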

Additional observations from a re-analysis of the deposited data

Results flagged for a closer look

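Hnrnpul2, a relative of the nuclear scaffold protein hnRNP U, was flagged because its mean in embryo 9, 14.90, lay far from those of the other embryos, which ran from 13.80 to 14.29. Sisters a and b of embryo 9 read 15.04 and 14.76, and sister a of embryo 7 reached 14.88 while its sister read 12.72. The gene was not called between embryos in limma (adjusted p = 0.874). In all, 41 sets of 9 embryo means were looked at in this way, and chance flags about 1 in 20.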

How the results depend on the processing

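The count of 4 genes called between embryos, beside 749 of all genes, was 1 when all named genes were tested (403 of all). It was 2 each with no intensity trend (650 of all), quantile normalization (631) and the plain analysis of variance (353). With median centring (745 of all) or all probe sets of a gene averaged (737) it was 3. Without embryos 1 and 5, a setting chosen after seeing the data, it was 6 (757 of all). With 1 embryo left out it ran from 0 (without embryo 9, 497 of all) to 6 (without embryo 1, 893 of all). Without embryo 4 (520 of all), 7 (422) or 8 (476) it was 1. With 1 blastomere left out it ran from 0 (without 9a or 9b) to 6, the lone sister being assumed to vary like the others. Snrpg stayed called without each embryo other than 9 and was lost with no trend or with probe sets averaged (adjusted p = 0.189 and 0.306). With 1 embryo left out, the limma adjusted p reached 0.0913 for Hnrnpab (without embryo 7), 0.298 for Hnrnph2 (without 4) and 0.257 for Srsf10 (without 8). Other settings also ended calls (adjusted p). Hnrnpab was lost with all named genes (0.0710), no trend (0.0623), quantile normalization (0.0711) and the plain analysis of variance (0.0615), Hnrnph2 with all named genes (0.0799), quantile normalization (0.0609) and the plain analysis of variance (0.0701), and Srsf10 with all named genes (0.112) and median centring (0.0829). All 4 calls held without embryos 1 and 5. The 8 other splicing genes called were 4 when all named genes were tested, 5 without embryos 1 and 5, and 4 to 8 with 1 embryo left out (4 without embryo 4, 5 without 3, 7, 9 or 10). Sister variance gave 0 calls among these genes in all 33 alternatives, under the same limit of a prior fitted to the tested genes. The median sister ratio ran from 1.35 to 1.39 and the share over 2-fold apart from 13.9% to 17.4%. Under median centring the median of all genes lay between -0.14 (embryo 10) and 0.10 (embryos 5 and 8). The causes were not tested. No paired analysis was possible because the letters a and b only name the sisters of an embryo, which is the grouping itself. With 2 blastomeres in each of 9 embryos, genes near the threshold of signal or significance are weakly determined.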
